A study of Mus musculus with 17 samples.

Results

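The guanylate-binding protein (Gbp) cluster on mouse chromosome 5 holds 6 annotated genes within 334 kb: Gbp8, Gbp9, Gbp4, Gbp10, Gbp6 and Gbp11, in order of rising coordinate. All 6 were taken by name from the RefSeq annotation of mm10/GRCm38, and every ChIP-seq peak whose summit lay within 20 kb of one of their spans was collected. Of 144384 peaks in 16 ChIP lists, 44 met this rule, and they fell at 13 separate sites once peaks that overlapped by at least 1 bp were joined. Gbp11 is annotated as a transcribed pseudogene and the other 5 as protein-coding genes.

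Guanylate-binding proteins are large GTPases of the dynamin superfamily that interferons induce strongly in macrophages. They gather on pathogen vacuoles and on bacteria that reach the cytosol, and help to break these down and to trigger inflammasome signalling. The mouse has one cluster of these genes on chromosome 3 and a second one on chromosome 5, and several copies in the second are close to identical in sequence. IRF1 and STAT family factors are textbook activators of Gbp genes, whereas interleukin 4 signals mainly through STAT6.

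Macrophages were grown from bone marrow of C57BL/6 mice and studied on day 7 of differentiation. STAT6, the factor that the IL4 receptor activates, was immunoprecipitated after 2 h of interferon gamma (IFNg, 100 ng/ml) together with interleukin 4 (IL4, 10 ng/ml), or after 2 h of IL4 alone. IRF1, an interferon-induced factor, JUNB, an AP-1 subunit, and CEBPB, a C/EBP family factor central to myeloid gene expression, were each mapped after 4 h of IFNg+IL4, after 4 h of IFNg alone, and without treatment. MYC, a regulator of cell growth, was mapped after 4 h and 2 h of IFNg+IL4, after 4 h and 2 h of IL4, and without treatment, and 1 input library served as control. The doses were those given above throughout. The titles of the IRF1, JUNB, CEBPB and MYC libraries carry the tag wt (wild type), and those of STAT6 and the input carry no such tag. The labels name no genetic alteration in any group. Each combination was 1 library with no replicate, so every comparison below describes these libraries, without p-values. The exact Clopper-Pearson 95% intervals cover counting error only.

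The lists were of very unequal length, from 244 peaks for IRF1 without treatment to 24927 for STAT6 with IL4. Library depth recovered from the peak columns ran from 0.33 (MYC with IFNg+IL4 at 2 h) to 1.55 (JUNB without treatment) times that of the input. No expression was measured, so the identity of the cells could not be checked by level. A peak summit lay within 20 kb of 3 to 5 of 5 macrophage genes (Csf1r, Adgre1, Cd68, Itgam and Spi1) in 14 lists, and of 1 in the untreated IRF1 and MYC lists. Over all protein-coding genes this share ran from 16.8% (JUNB with IFNg+IL4) to 51.1% (MYC with IL4 at 2 h) in the 14 lists. It was 2.47% in the untreated IRF1 list and 4.72% in the untreated MYC list. The input list of 128 peaks held none near a Gbp gene of the cluster, and none of the 44 peaks was lost by leaving out those that overlap it.

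The cluster was occupied in treated cells by STAT6, IRF1 and CEBPB and more sparsely by JUNB, and no MYC peak lay near it. Of the 13 sites, 10 held STAT6, 9 held CEBPB, 7 held IRF1 and 4 held JUNB. Only 1 of the 13 held a peak of an untreated library, a JUNB peak between Gbp9 and Gbp4. The untreated IRF1 and CEBPB lists had no peak anywhere in the 338 kb covered by the windows. Of all protein-coding genes, 2.47% had an untreated IRF1 peak within 20 kb, 20.7% a CEBPB peak, 25.2% a JUNB peak and 4.72% a MYC peak. No untreated STAT6 library was analysed here. In 11 of the 13 sites at least 2 factors had a peak, counted over all treatments and times and so not always in the same cells. No genome-wide share of such sites was computed. Of the 13 sites, 4 lay inside a gene of the cluster.

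**Figure D1:**
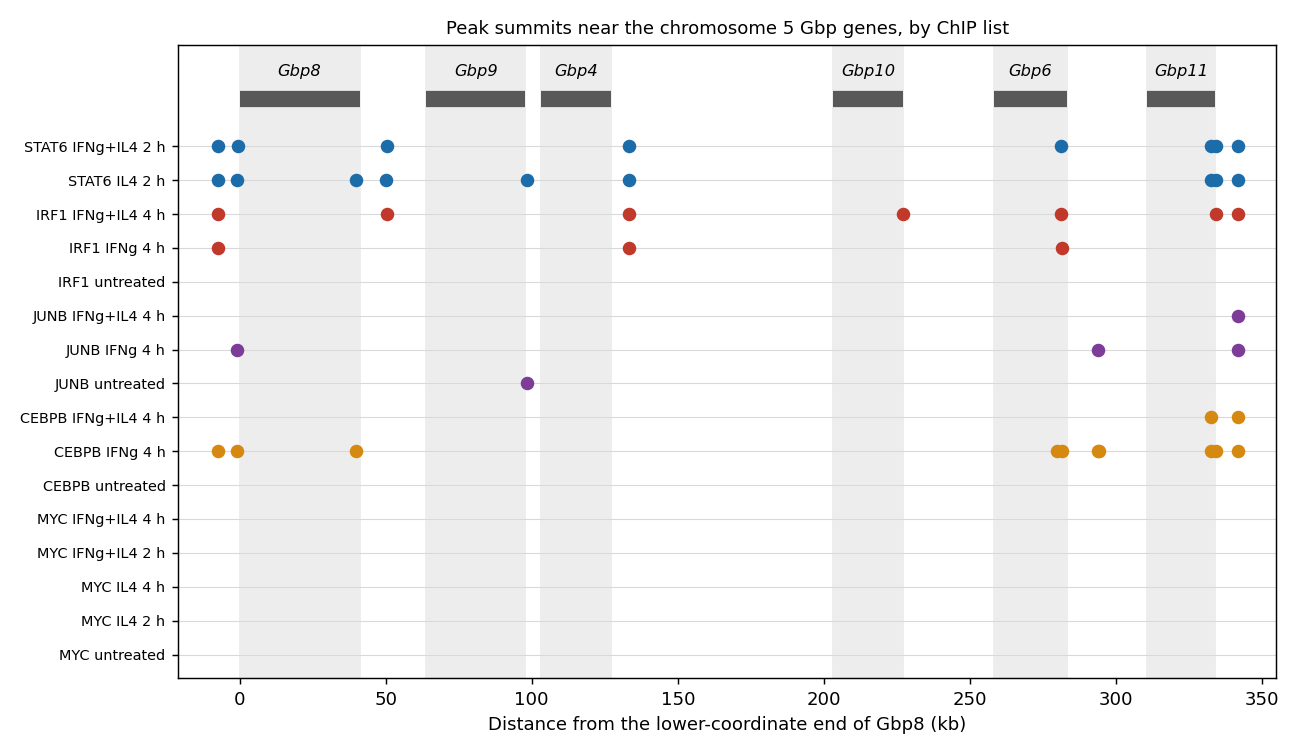
Position of every peak summit near the cluster, with 1 line for each ChIP list and distance in kb from the lower-coordinate end of Gbp8 along the horizontal axis; grey bars and bands mark the 6 genes and each dot is 1 summit. STAT6 shared 6 sites with IRF1 and 7 with CEBPB, while IRF1 and CEBPB shared 4. Of the 13 sites, 9 lay outside the genes, and the 5 MYC lines are empty.

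By distance to the nearest gene, the window was not a sharp limit, but the counts per gene depend on it. The outermost summit inside the window lay 10.7 kb from its nearest gene, a CEBPB peak with IFNg above Gbp6. The nearest summit outside it lay 25.6 kb below Gbp8, where both STAT6 lists and IRF1 with IFNg+IL4 had a peak, and no list had a summit between these distances. The genes are long, from 23.5 to 41.1 kb against a median of 17.2 kb over the 21887 protein-coding genes used, which widens the stretch in which a peak can count for them. The windows of 4 of the 5 pairs of neighbouring genes also overlap, so 1 peak can count for both. Gbp4 and Gbp10 are 76.1 kb apart and share no window. A peak counted for a second gene lay up to 13.9 kb from Gbp9 and up to 16.8 kb from Gbp11. The only STAT6 and IRF1 peaks with IFNg+IL4 that counted for Gbp9 were such peaks, 13.6 kb away.

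STAT6 had 8 peaks near the cluster with IFNg+IL4 and 9 with IL4. With IFNg+IL4 they reached 5 of the 6 genes, all but Gbp10, while 46.0% of all protein-coding genes had a STAT6 peak by the same rule. With IL4 alone they reached 4, Gbp8, Gbp9, Gbp4 and Gbp11, against 49.8% of all genes. With a window of 5 kb, 3 genes had a peak with IFNg+IL4, against 33.8% of all genes, and 4 with IL4, against 37.6%. Within 50 kb each list reached 5 genes, against 59.9% of all genes with IFNg+IL4 and 62.9% with IL4. STAT6 without IL4 was not analysed here. At 7 sites both lists had a peak. Of the 8 peaks with IFNg+IL4, 7 were also found with IL4, 87.5% (95% interval 47.3 to 99.7), against 80.3% of all peaks of that list. Of the 9 peaks with IL4, 7 were also found with IFNg+IL4, 77.8% (40.0 to 97.2), against 68.7% of that list. Both intervals contain the genome-wide share, so a retention of STAT6 different from that elsewhere was not detectable here.

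The 3 sites held by one of the STAT6 lists differed in kind. Within 20 kb, Gbp6 was the only gene of the cluster with a STAT6 peak under IFNg+IL4 and none under IL4, a pattern shared by 3.61% of all genes. With a window of 50 kb the pattern was gone, since the IL4 peak inside Gbp11 then also counted for Gbp6. The IFNg+IL4 peak inside Gbp6, at chr5:105293718-105293999, had an authors' fold over control of 18.1 and ranked 4890 of 21481 by −log10 p, in the top 22.8% of its list. The reverse pattern was seen at sites where the IL4 peak was of middle or low rank: 483 bp above the upper end of Gbp9 (rank 12087 of 24927) and inside Gbp8 close to its upper end (rank 23789). The strongest peak with IFNg+IL4 lay at the lower end of the cluster, 7.35 kb below Gbp8, with a fold of 23.0 and rank 3781, in the top 17.6%, and the IL4 peak there ranked 10290, in the top 41.3%. At the upper end, 7.8 kb above Gbp11, the IFNg+IL4 peak had a fold of 8.39 and rank 12678, in the top 59.0%. The IL4 peak there had a fold of 27.4 and rank 3872, in the top 15.5%, and was the strongest of its list in the cluster. Fold and rank are the peak caller's values within each list and are not a measure of change between lists.

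IRF1 peaks were found across the cluster in cells given IFNg and nowhere in it without treatment. It had 7 peaks with IFNg+IL4, 3 with IFNg and none without treatment. The 7 peaks reached all 6 genes, against 29.7% of all protein-coding genes. Within 5 kb they reached 3 genes, against 20.4%. The 3 peaks with IFNg reached Gbp8, Gbp4 and Gbp6, against 18.0% of all genes. Within 5 kb they reached 1 gene, against 12.0%, and within 50 kb 5 genes, against 28.8%. In untreated cells the count was 0 of 6 genes, against 2.47% of all genes. An IRF1 peak in treated and none in untreated cells was thus found for 6 genes with IFNg+IL4, against 27.2% of all genes, and for 3 with IFNg, against 15.7%. None of the 7 peaks with IFNg+IL4 (0 to 41.0%) and none of the 3 with IFNg (0 to 70.8%) overlapped an untreated peak, beside 2.94% and 5.54% of all peaks of those lists. The untreated list had 244 peaks, and its library was recovered from 233 of them as 1.54 times as deep as the input. What made this list short was not tested.

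All 3 IRF1 sites seen with IFNg were seen again with IFNg+IL4 (29.2 to 100%, against 95.2% of all IFNg peaks): 7.3 kb below Gbp8, 6.2 kb above Gbp4 and inside Gbp6. The first had a fold of 17.6 with IFNg+IL4 and 12.7 with IFNg, the second 15.6 with IFNg+IL4 and 7.61 with IFNg. For the third it was 21.3 with IFNg+IL4 and 9.68 with IFNg. These folds come from libraries of unlike depth and are not a measure of change between lists. Of the 7 peaks with IFNg+IL4, 3 overlapped an IFNg peak, 42.9% (9.9 to 81.6), against 47.6% over the whole list. The other 4 peaks lay 9.25 kb above Gbp8, 165 bp above Gbp10, 127 bp above Gbp11 and 7.84 kb above Gbp11. They gave 3 genes, Gbp9, Gbp10 and Gbp11, an IRF1 peak with IFNg+IL4 that was missing with IFNg, against 12.0% of all genes. The recovered depth of the IRF1 library was 0.93 times the input with IFNg+IL4 and 0.446 times with IFNg. When the IFNg+IL4 list was held to its 4189 strongest peaks, the length of the IFNg list, 5 of these 7 peaks remained and 5 of 6 genes kept a peak, against 18.0% of all genes. The part that depth had in the difference was not tested.

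Several IRF1 peaks with IFNg+IL4 ranked high within their list. The median of the 7 lay at the top 24.7% of the list, and 4 were in the strongest 25%. The best ranked lay inside Gbp6 (rank 1194 of 8226, −log10 p of 51.2) and just above Gbp11 (rank 1294, −log10 p of 48.6). The peak beside Gbp10 had a fold of 10.4 and rank 3522. The peak above Gbp8 that also counts for Gbp9, 13.6 kb away, was the weakest, with a fold of 6.09 and rank 6888.

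CEBPB had its largest number of peaks near the cluster with IFNg. It had 2 peaks with IFNg+IL4, 10 with IFNg and none without treatment. With IFNg they reached Gbp8, Gbp6 and Gbp11, 3 of 6 genes, against 48.2% of all protein-coding genes, a share close to this background. With IFNg+IL4 only Gbp11 had a peak, against 22.4% of all genes (2 genes within 50 kb, against 34.1%), and in untreated cells 0 of 6 genes did, against 20.7%. A peak with IFNg and none without treatment was found for the 3 genes named, against 27.6% of all genes. Gbp8 and Gbp6 had a peak with IFNg but lacked one with IFNg+IL4, as did 26.0% of all genes. A peak with IFNg+IL4 and none without treatment was found for Gbp11, against 4.72% of all genes.

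None of the 10 CEBPB peaks with IFNg overlapped an untreated CEBPB peak (0 to 30.8%), against 25.6% of all peaks in that list, and the upper bound lies above the genome-wide share. Neither of the 2 peaks with IFNg+IL4 did (0 to 84.2%), against 67.3%. Both of these IFNg+IL4 peaks lay at sites also held with IFNg (15.8 to 100%, against 97.5% of all IFNg+IL4 peaks). Of the 10 IFNg peaks, 2 recurred with IFNg+IL4, 20.0% (2.52 to 55.6), against 28.2% of all peaks. The interval contains the genome-wide share, and the list as a whole held 6278 peaks with IFNg+IL4, against 21499 with IFNg. The 3 CEBPB libraries were of like recovered depth, 1.31 with IFNg+IL4, 1.33 with IFNg and 1.46 untreated, relative to the input. Held to its 5540 strongest peaks, the length of the untreated list, the IFNg list kept 1 peak near the cluster, inside Gbp11, so 1 gene had a peak, against 20.6% of all genes. At the length of the IFNg+IL4 list it was also 1 gene, against 22.5%.

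The strongest CEBPB peak lay inside Gbp11, 1324 bp below its upper end, at chr5:105344940-105345445. With IFNg it had a fold of 19.1, a −log10 p of 60.3 and rank 4332 of 21499, the only CEBPB peak of the cluster in the strongest 25% of its list. With IFNg+IL4 the fold was 7.70 and the rank 3473 of 6278. The other peak shared by both treatments lay 7.8 kb above Gbp11, with a fold of 7.36 and rank 4872 with IFNg+IL4, and a fold of 11.1 and rank 10699 with IFNg. Sites held by CEBPB with IFNg alone of the CEBPB lists lay below Gbp8, 7.30 kb and 746 bp away, and inside Gbp8. More of them lay inside Gbp6, above Gbp6 and 457 bp above Gbp11. No CEBPB list had a peak within 20 kb of Gbp9, Gbp4 or Gbp10.

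JUNB had few peaks near the cluster, and its 1 untreated peak lay at another site than those of treated cells. It had 1 peak with IFNg+IL4, 3 with IFNg and 1 without treatment. With IFNg+IL4 the peak served Gbp11, 1 of 6 genes, against 16.8% of all genes (0 within 5 kb, against 11.0%, and 2 within 50 kb, against 26.9%). With IFNg the peaks served Gbp8, Gbp6 and Gbp11, 3 of 6, against 20.7% (1 within 5 kb, against 13.8%). Without treatment the peak, 509 bp above Gbp9 and 4.90 kb below Gbp4, served these 2 genes, against 25.2%. A JUNB peak with IFNg and none without treatment was found for Gbp8, Gbp6 and Gbp11, against 5.16% of all genes, and the reverse for Gbp9 and Gbp4, against 9.65%. A peak with IFNg+IL4 and none without treatment was found for Gbp11, against 3.64% of all genes, and the reverse for Gbp9 and Gbp4, against 12.0%. Gbp8 and Gbp6 had one with IFNg but lacked one with IFNg+IL4, as did 5.83% of all genes.

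None of the 3 JUNB peaks with IFNg overlapped an untreated peak (0 to 70.8%), against 58.7% of the whole list. The untreated peak overlapped none with IFNg and none with IFNg+IL4 (0 to 97.5% each), against 46.9% and 38.2%. The single IFNg+IL4 peak overlapped no untreated peak, against 63.8% of that list, but overlapped an IFNg peak, as did 82.9% of the list. Of the 3 IFNg peaks, 1 recurred with IFNg+IL4, 33.3% (0.84 to 90.6), against 62.0%. With so few peaks these intervals leave nearly the whole range possible. JUNB peaks here were also of low rank: the 3 with IFNg lay between the top 71.5% and 78.4% of their list, the one with IFNg+IL4 at 62.6% and the untreated one at 54.2%. The untreated peak had a −log10 q of 2.34. By its values the untreated list reaches down to a −log10 p of 2.03 and a −log10 q of 0, while no other list goes below a −log10 q of 2.01, and the peak still counted at a −log10 q of 2. At a −log10 q of at least 5 it did not, and 0 genes had an untreated JUNB peak, against 10.4% of all genes.

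MYC was not found near any gene of the cluster. The count was 0 of 6 genes with IFNg+IL4 at 4 h and 2 h, with IL4 at 4 h and 2 h, and without treatment. Over all protein-coding genes the shares with a MYC peak were 22.6% and 20.9% with IFNg+IL4 at 4 h and 2 h, 44.8% and 51.1% with IL4 at 4 h and 2 h, and 4.72% without treatment. The MYC libraries were among the shallowest, at 0.33 to 0.876 times the input, so a weak site could have been missed. The part that depth had in these counts was not tested. The longest MYC list, with IL4 at 2 h, held 13211 peaks at a recovered depth of 0.573 times the input. Within 50 kb its count was also 0 of 6 genes, against 61.3% of all genes.

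**Figure D2:**
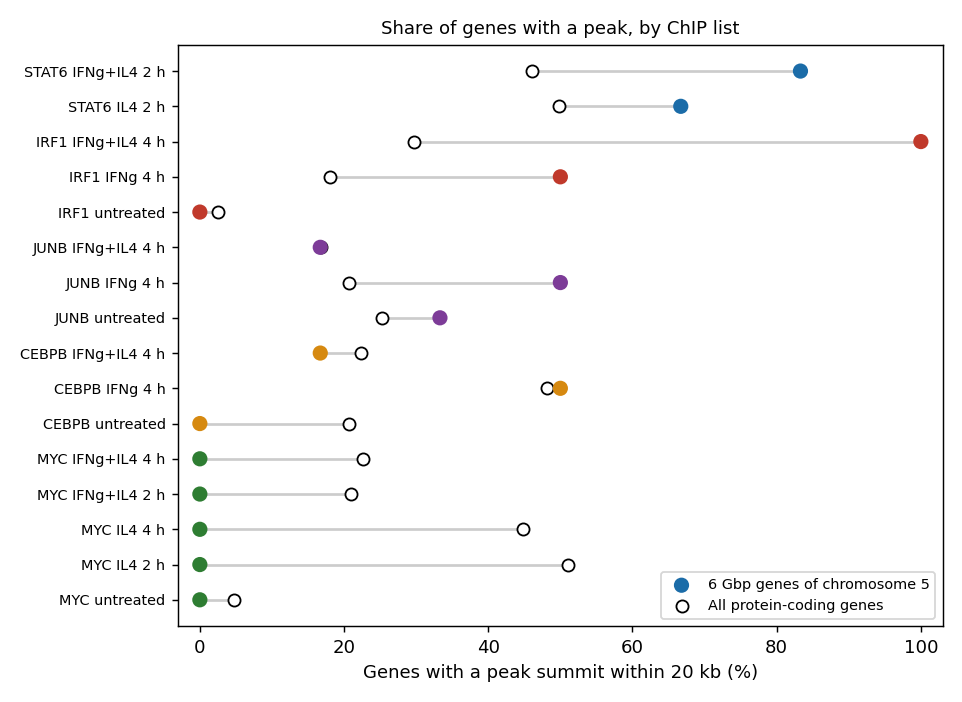
Share of genes with a peak summit within 20 kb, in percent, for each ChIP list; filled dots are the 6 Gbp genes of chromosome 5 and open dots all protein-coding genes. IRF1 with IFNg+IL4 stands at 100% against 29.7%, CEBPB with IFNg at 50.0% against 48.2%, and the 5 MYC lists at 0%.

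Gene by gene, the outer genes of the cluster carried most peaks and Gbp10 the fewest. Gbp11, the pseudogene at the upper end, had 18 peaks from 7 lists at 4 sites. Gbp8, at the lower end, had 14 peaks from 6 lists at 4 sites. Gbp6 had 8 peaks from 5 lists, Gbp4 had 6 from 5 lists, Gbp9 had 5 from 4 lists, and Gbp10 had 1 peak.

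**Figure D3:**
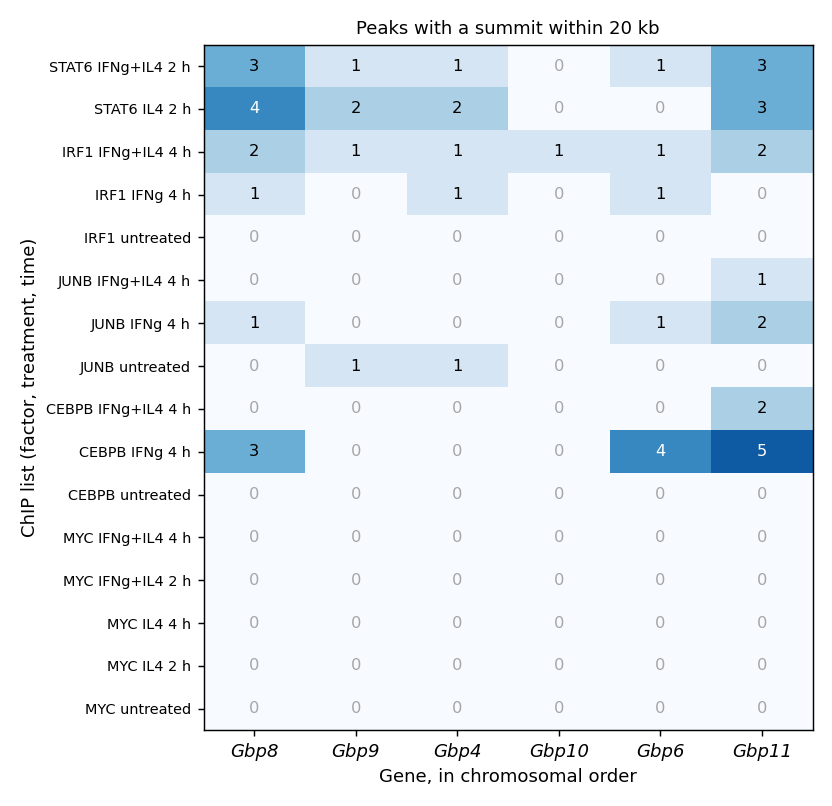
Number of peaks with a summit within 20 kb of each gene (columns, in chromosomal order) in each ChIP list (lines), with darker blue for more peaks; a peak between 2 genes counts for both. The highest count is 5, for CEBPB with IFNg at Gbp11, and IRF1 with IFNg+IL4 is the one list with a peak for every gene.

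Gbp8 spans chr5:105012513-105053609. Its most occupied site, chr5:105005072-105005385, lies 7.3 kb below its lower end and held 5 peaks of 3 factors: STAT6 with IFNg+IL4 and with IL4, IRF1 with IFNg+IL4 and with IFNg, and CEBPB with IFNg. The 5 summits lay within 49 bp, and the IRF1 peak with IFNg+IL4 and the STAT6 peak with IL4 were 1 bp apart. A second site, chr5:105011654-105012026, lies between 590 and 747 bp below the lower end and held STAT6 with IFNg+IL4, STAT6 with IL4, JUNB with IFNg and CEBPB with IFNg, with no IRF1. The CEBPB peak was the best ranked there, in the top 34.3% of its list. Inside the gene, about 1.3 kb below its upper end, STAT6 with IL4 and CEBPB with IFNg shared a weak site. Above the gene, at chr5:105062504-105062997, both STAT6 lists and IRF1 with IFNg+IL4 had a peak. There the IFNg+IL4 summits of STAT6 and IRF1 were 12 bp apart, and the STAT6 summit with IL4 lay 285 bp from that of STAT6 with IFNg+IL4.

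Gbp9 (chr5:105076464-105110357) and Gbp4 (chr5:105115767-105139586) are 5.41 kb apart and shared the site between them, chr5:105110733-105111032. It held STAT6 with IL4, with a fold of 10.2, and JUNB without treatment, with a fold of 4.21, at summits 26 bp apart. The only other site for Gbp9 was that above Gbp8, whose STAT6 and IRF1 peaks lay 13.6 to 13.9 kb from it. Gbp4 had a site of its own 6.2 kb above its upper end, chr5:105145667-105145933, where both STAT6 lists and both IRF1 lists of treated cells had a peak. With IFNg+IL4 the STAT6 peak there had a fold of 9.78 and rank 10299 of 21481, and with IL4 a fold of 19.9 and rank 5679 of 24927. The summits of STAT6 with IL4 and IRF1 with IFNg+IL4 were again 1 bp apart.

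Gbp10 (chr5:105215699-105239533) had 1 peak in the 16 lists, IRF1 with IFNg+IL4 at chr5:105239556-105239786, 165 bp above its upper end. It was 1 of 2 sites held by a single list. The other, chr5:105292356-105292612, lay inside Gbp6 and held CEBPB with IFNg. Gbp10, Gbp6 and Gbp11 are close to identical copies, and how reads that match several copies were treated is not given in the sources used here. The lack of peaks at Gbp10, and the place of peaks at all 3 genes, is uncertain for that reason.

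Gbp6 (chr5:105270702-105295871) held a site with STAT6 in a single list. At chr5:105293718-105294328, inside the gene and about 2 kb below its upper end, STAT6 with IFNg+IL4, IRF1 with IFNg+IL4, IRF1 with IFNg and CEBPB with IFNg each had a peak, and STAT6 with IL4 did not. The IFNg+IL4 summits of STAT6 and IRF1 were 3 bp apart, while the CEBPB summit lay 323 bp from that of IRF1 with IFNg+IL4. Over the whole genome, 4236 STAT6 peaks with IFNg+IL4 had no counterpart with IL4, and 23.6% of them overlapped an IRF1 peak with IFNg+IL4, against 12.7% of the 17245 that did have one. A further site 10.3 to 10.7 kb above Gbp6, which also lies within 20 kb of Gbp11, held 2 CEBPB peaks and 1 JUNB peak, all with IFNg.

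Gbp11 (chr5:105323026-105346476) had the site held by the most lists. At chr5:105354055-105354415, 7.7 to 7.8 kb above its upper end, 7 lists of 4 factors had a peak: STAT6, IRF1, JUNB and CEBPB with IFNg+IL4, STAT6 with IL4, and JUNB and CEBPB with IFNg. It was the only site of the cluster with all 4 factors and the only one with JUNB or CEBPB in common with IRF1 under IFNg+IL4. IRF1 with IFNg had no peak there. Closer to the gene, at chr5:105346507-105347070, summits were spread over 330 bp, with IRF1 under IFNg+IL4 at 127 bp above the upper end, STAT6 under IFNg+IL4 at 272 bp and under IL4 at 369 bp, and CEBPB under IFNg at 457 bp. The third, inside Gbp11, held both STAT6 lists and CEBPB with IFNg+IL4 and with IFNg, and no IRF1.

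**Figure D4:**
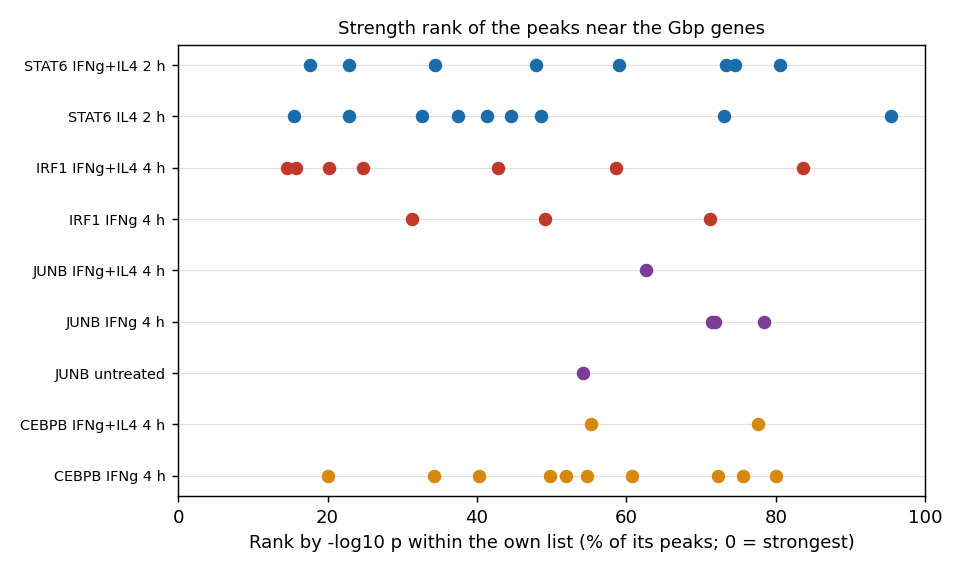
Rank of each of the 44 peaks within its own list by the authors' −log10 p, in percent of the list's peaks, with 0 for the strongest; each dot is 1 peak and lists without a peak near the cluster are left out. Of the 44 dots 22 lie at or below 50%, none lies below 10%, and the 5 JUNB dots all lie beyond 50%.

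None of the 44 peaks was in the strongest 10% of its list, 9 were in the strongest 25% and 22 in the strongest 50%.

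STAT6 and IRF1 peaks coincided at the cluster in a larger share than over the genome. With IFNg+IL4, 6 of 8 STAT6 peaks overlapped an IRF1 peak, 75.0% (34.9 to 96.8), against 14.9% of all STAT6 peaks in that list. In the other direction 6 of 7 IRF1 peaks overlapped a STAT6 peak, 85.7% (42.1 to 99.6), against 38.9% of all IRF1 peaks. Both intervals lie above the genome-wide share, although they cover counting error only, the peaks share libraries and neighbourhood, and STAT6 was mapped at 2 h and IRF1 at 4 h. Over the 6 sites that held both factors, 16 pairs of summits, pooled over all treatments, lay at a median of 19.5 bp from each other (1 to 297 bp). Of the 16 pairs, 13 lay within 100 bp. Peaks of a site were joined by overlap, which by itself keeps such distances short, and no genome-wide distance was computed. Of the 7 IRF1 sites with IFNg+IL4, 5 also held STAT6 in cells that had received IL4 alone, and of the 3 IRF1 sites with IFNg, 2 did.

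CEBPB overlapped the other factors less evenly. With IFNg+IL4, 2 of 8 STAT6 peaks overlapped a CEBPB peak, 25.0% (3.19 to 65.1), against 15.5% of that list, and 2 of 2 CEBPB peaks a STAT6 peak (15.8 to 100%), against 53.2%. With IFNg, 4 of 10 CEBPB peaks overlapped JUNB, 40.0% (12.2 to 73.8), against 19.9%, and 2 of 10 overlapped IRF1, 20.0% (2.52 to 55.6), against 5.20%. All 3 JUNB peaks with IFNg overlapped a CEBPB peak (29.2 to 100%), against 58.1%. Of the 3 IRF1 peaks with IFNg, 2 overlapped CEBPB (9.43 to 99.2%), against 26.8%, and none overlapped JUNB (0 to 70.8%), against 23.6%. All of these intervals contain the genome-wide share. Pooled over all treatments, CEBPB and STAT6 both had a peak at 7 sites, where 16 pairs of summits lay at a median of 23.5 bp. Here too the peaks were joined by overlap and no genome-wide distance was computed.

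The 5 Gbp genes of chromosome 3 (Gbp2, Gbp2b, Gbp3, Gbp5 and Gbp7) had a richer set of peaks. All 5 had a peak in each of the STAT6, JUNB and CEBPB lists, the untreated JUNB and CEBPB lists included, and in both IRF1 lists of treated cells. Over all protein-coding genes the share with a peak in these lists ran from 16.8% (JUNB with IFNg+IL4) to 49.8% (STAT6 with IL4). In untreated cells each had 1 to 3 JUNB peaks and 1 or 2 CEBPB peaks, while the chromosome 5 genes had the 1 JUNB peak shared by Gbp9 and Gbp4 and no CEBPB peak. For MYC, Gbp3 and Gbp7 had 1 peak each, with IL4 at 2 h, where 51.1% of all genes had one. With 1 library a group and overlapping windows, no test of the difference between the clusters was made. Of 11 immunity-related GTPases, another interferon-induced GTPase family of mouse macrophages, 9 had a STAT6 peak with IFNg+IL4, against 46.0% of all genes. With IL4 it was also 9, against 49.8%. An IRF1 peak was found for 6 of the 11 with IFNg+IL4 (against 29.7%), 6 with IFNg (18.0%) and 1 without treatment (2.47%). None had a JUNB peak (against 25.2%) or a CEBPB peak (20.7%) in untreated cells.

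The mean number of peaks per gene of the cluster was 1.5 for STAT6 with IFNg+IL4 and 1.83 with IL4. It was 1.33 for IRF1 with IFNg+IL4, 0.5 with IFNg and 0 untreated. For CEBPB it was 0.333 with IFNg+IL4, 2.0 with IFNg and 0 untreated. The protein-coding genes more than 1 Mb from the cluster with the most similar counts over the 16 lists were Tnfsf8 (Pearson r = 0.963), Resf1 (0.958), Spef2 (0.958), Sipa1l1 (0.953) and Wbp2 (0.951). These values describe the pattern over the 16 lists, which share factors and treatments and differ in depth, and carry no test.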

How the data were processed

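Peak lists of 16 ChIP-seq libraries (5 factors) and 1 input library were used, grouped by the factor, treatment and time in the labels, with 1 library per group. The submitters' processing notes name Bowtie2 2.2.6 for alignment, MACS2 2.1.0.20150731 for peaks, and the build mm10/GRCm38. The peak names in the deposited lists name the input as control in all 16 ChIP lists, and a bandwidth of 100, and a q threshold of 0.01 in 13 of them. Other settings, the treatment of reads with several matches included, were not given in the sources used here. The deposited fold is a ratio of signal over control at the summit, and the deposited −log10 p and −log10 q come from the authors' peak caller, for each peak. They were used to describe and rank peaks within a list. The values of the untreated JUNB list look thresholded on p, although its peak names carry the string qE2 as in the other JUNB lists, and 5355 of its 9229 peaks reached a −log10 q of 2.

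Peaks were limited to chromosomes 1 to 19, X and Y, less ChIP peaks that overlap an input peak. Gene spans came from RefSeq (GRCm38), whose table used here gives no strand, so ends are called lower and upper by coordinate. A gene had a peak when a summit lay within 20 kb of its span, and peaks overlapping by at least 1 bp formed a site or counted as kept. Intervals are exact Clopper-Pearson 95% intervals. Backgrounds are the shares over all protein-coding genes or all peaks of the list. Read depth was recovered relative to the input from the steps in fold and −log10 p (at most 2000 peaks a list, none above a −log10 p of 80), on the assumption of a common input. In libraries shallower than the input only 0.402 to 0.499 of the values lay on these steps, so their depths are approximate.

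All 6 genes are named, with the chromosome 3 Gbp genes, the immunity-related GTPases, neighbours, and the 5 genes with the most similar counts. Sites described in full are those held by most lists, those with the strongest peak of a factor and those that differ within a pair. The members and lists were chosen with earlier results of these data known. Alternatives were windows of 5 and 50 kb, a −log10 q of at least 5, input overlaps kept, and the whole cluster interval in place of the gene windows. That interval ran from 20 kb below the lowest gene to 20 kb above the highest. Further alternatives were a reciprocal overlap of 50%, summits at most 200 bp apart and lists of equal length. No sequences were used here. Scripts ran in Python 3.11.15 with pandas 2.3.3, numpy 2.4.6 and scipy 1.17.1 and were tested on simulated data.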

Additional observations from a re-analysis of the deposited data

How the results depend on the processing

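Of 81 recomputed counts of genes with a peak, 17 changed, 13 of them by more than 1.5 times. Of 122 recomputed shares of kept peaks, 29 changed, 6 of them to a value outside the 95% interval of the original share. With a window of 5 kb, 3 genes had a STAT6 peak with IFNg+IL4, against 33.8% of all protein-coding genes. An IRF1 peak was found for 3 with IFNg+IL4 (against 20.4%) and 1 with IFNg (against 12.0%). A JUNB peak was found for 1 with IFNg (against 13.8%) and 0 with IFNg+IL4 (against 11.0%). At this window 0% of JUNB peaks with IFNg (0 of 1) recurred with IFNg+IL4. With a window of 50 kb, 2 genes had a CEBPB peak with IFNg+IL4 (against 34.1%), 5 an IRF1 peak with IFNg (against 28.8%) and 2 a JUNB peak with IFNg+IL4 (against 26.9%). The first 2 of these counts rose with no added peak, since the same peaks reached more genes. Of the 2 untreated JUNB peaks within 50 kb, 1 recurred with IFNg, against 46.9% of that list, and 1 with IFNg+IL4, against 38.2%. Within 20 kb it was 0 of 1 in both cases. No gene had a MYC peak at 5 or 50 kb, against 2.94 to 41.7% and 7.66 to 61.3% of all genes over the 5 MYC lists. At a −log10 q of at least 5 no gene (0) had a JUNB peak in untreated cells, against 10.4% of all genes.

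With lists cut to equal length, 1 gene kept a CEBPB peak with IFNg. This held at the length of the untreated list, against 20.6% of all genes, and of the IFNg+IL4 list, against 22.5%. At the 244 peaks of the untreated IRF1 list, 0 kept an IRF1 peak with IFNg+IL4 and 0 with IFNg. The best IRF1 peaks of the cluster rank 1194 with IFNg+IL4 and 1310 with IFNg, so a list of 244 could not hold them and these zeros say nothing about the difference from untreated cells. At equal length 100% of CEBPB peaks with IFNg (1 of 1) recurred with IFNg+IL4, 0% of JUNB peaks with IFNg (0 of 2) recurred with IFNg+IL4, and 0% of JUNB peaks with IFNg+IL4 (0 of 1) with IFNg. Asking for a reciprocal overlap of 50%, 0% of CEBPB peaks with IFNg (0 of 10) met one with IFNg+IL4, and 0% (0 of 2) the other way. With summits at most 200 bp apart, 75.0% of STAT6 peaks with IFNg+IL4 (6 of 8) met one with IL4 and 66.7% (6 of 9) the other way. Keeping input overlaps, or taking summits over the whole cluster interval, changed no value. The untreated JUNB count was 2 also at a −log10 q of at least 2, an alternative chosen after seeing the data. The causes were not tested beyond the change in list length or window itself. No paired analysis was possible because each group is 1 library and the labels give no replicate numbers.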

Other observations

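Just outside the windows, below the cluster, STAT6, IRF1, JUNB and CEBPB also had peaks, and JUNB and CEBPB had them in untreated cells as well. Abcg3, an ABC transporter family gene whose span ends 29.7 kb below Gbp8, had a site at chr5:104958153-104958793 held by all 8 lists of STAT6, JUNB and CEBPB, untreated cells included. There the CEBPB peak with IFNg was in the top 3.87% of its list, the STAT6 peak with IFNg+IL4 in the top 9.32% and the STAT6 peak with IL4 in the top 8.71%. JUNB had 3 peaks within the span of Abcg3 in each of its 3 lists, against 1 peak with IFNg+IL4, 3 with IFNg and 1 without treatment near the 6 Gbp genes. IRF1 had 2 peaks there with IFNg+IL4, 1 with IFNg and none without treatment. Between Abcg3 and Gbp8, both STAT6 lists had a peak 25.6 kb below Gbp8, in the top 12.7% with IFNg+IL4 and the top 7.27% with IL4, and IRF1 with IFNg+IL4 had one in the same place.

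On the other side, 68.7 kb above Gbp11, the lower end of Lrrc8b, a subunit of volume-regulated anion channels, held a MYC peak with IFNg+IL4 and with IL4 at 4 h and at 2 h and none without treatment. This was the MYC peak nearest to the cluster in all 4 of these lists, 69.1 kb away. With IL4 at 2 h it was in the top 9.92% of its list.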
